A study of Homo sapiens with 12 samples.

Results

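The transcript response of OPM2 cells to 2 h of 18DS was taken from 6 of the 12 libraries of the series, 3 treated with 18DS at 250 nM and 3 treated with the DMSO vehicle, with every gene that passed the expression filter as a member. OPM2 is an established human multiple myeloma line, a cancer of plasma cells. 18DS is a code-named small molecule that the submitters describe as a chimera inhibiting both phosphoinositide 3-kinase (PI3K) and the bromodomain and extra-terminal (BET) proteins. The other 6 libraries, used here for values side by side and for 1 direct comparison, received the BET inhibitor JQ1 at 250 nM (3 libraries) or the PI3K inhibitor BKM120 (buparlisib) at 1 µM (3 libraries), also for 2 h. The labels call the 3 libraries of a group a biological triplicate. A combination of JQ1 with BKM120 was not among the treatments. The design asks which transcripts change soon after exposure, and 2 h limits the view to early changes in RNA level.

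BET proteins, among them BRD2 and BRD3, read acetylated histones through their bromodomains and help the kinase complex P-TEFb release paused RNA polymerase. Their inhibition is known to lower MYC in myeloma cells and to release P-TEFb from the inhibitory HEXIM1 complex, with HEXIM1 itself induced. PI3K acts upstream of the kinases AKT and mTOR. AKT keeps FOXO transcription factors in the cytoplasm, so that FOXO target genes are commonly read when the pathway is inhibited.

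RNA was measured by 3' mRNA sequencing as raw read counts per gene. Total counts were 5882214 to 7292895 in the 18DS libraries and 5940610 to 6594995 in the DMSO libraries, and levels are given as CPM, reads relative to the scaled library size. At this depth 13180 of 63152 gene identifiers were tested, with log2 fold changes known to a median standard error of 0.17. The 10 plasma cell markers checked were present, from CD38 at 3.50 to 7.03 CPM to JCHAIN at 2630 to 3180 CPM over the 12 libraries, and FGFR3, NSD2 and CCND2, which OPM2 is known to express, were also present. Markers of T and NK cells summed to 0.630 to 0.843 CPM in 18DS and 0.294 to 1.16 CPM in DMSO, and CD3D, NKG7, TRBC1, TRBC2, CD163, FCGR3A, COL3A1 and PDGFRB had no count in any library. Mitochondrially encoded genes held 7.20% ± 0.350 of counts in 18DS and 6.71% ± 0.229 in DMSO (SD, n = 3 each; exact permutation test, two-sided, p = 0.2, with 0.1 the smallest p possible). 18DS replicate 2 stood apart from the other 18DS libraries: the SD of its log2 differences to replicates 1 and 3 over genes of at least 5 CPM was 0.363 and 0.324, against 0.264 between those 2, and 0.241 to 0.275 between DMSO libraries.

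18DS moved many transcripts in both directions within 2 h, with rises and falls in similar numbers. By edgeR's quasi-likelihood test at a Benjamini-Hochberg adjusted p under 0.05, 2768 of 13180 genes changed (21%), of which 1312 were higher in 18DS (9.95% of those tested) and 1456 lower (11%). The 3 libraries of each group did not overlap in 4650 genes (35.3%), among them 1243 of the genes called higher and 1405 of those called lower. Most changes were small. The median log2 fold change was 0.53 among genes called higher and -0.60 among those called lower, 284 genes rose and 264 fell by more than 2-fold, and 65 rose and 22 fell by more than 4-fold. Called genes rose more often than they fell at the highest levels: among the 1473 genes of 100 CPM or more, 22.8% were higher and 9.98% lower, while among the 3975 genes of 20 to 100 CPM 10.4% were higher and 16.5% lower. The split between rises and falls depends on the scaling, since 47.4% of the called genes were higher with TMM, 30.7% with library totals alone and 58.0% with upper-quartile factors. Measured against the DMSO libraries, the median change of the genes called higher was 0.399, 0.612 and 0.521 in 18DS replicates 1, 2 and 3, and that of the genes called lower was -0.500, -0.649 and -0.594.

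**Figure D1:**
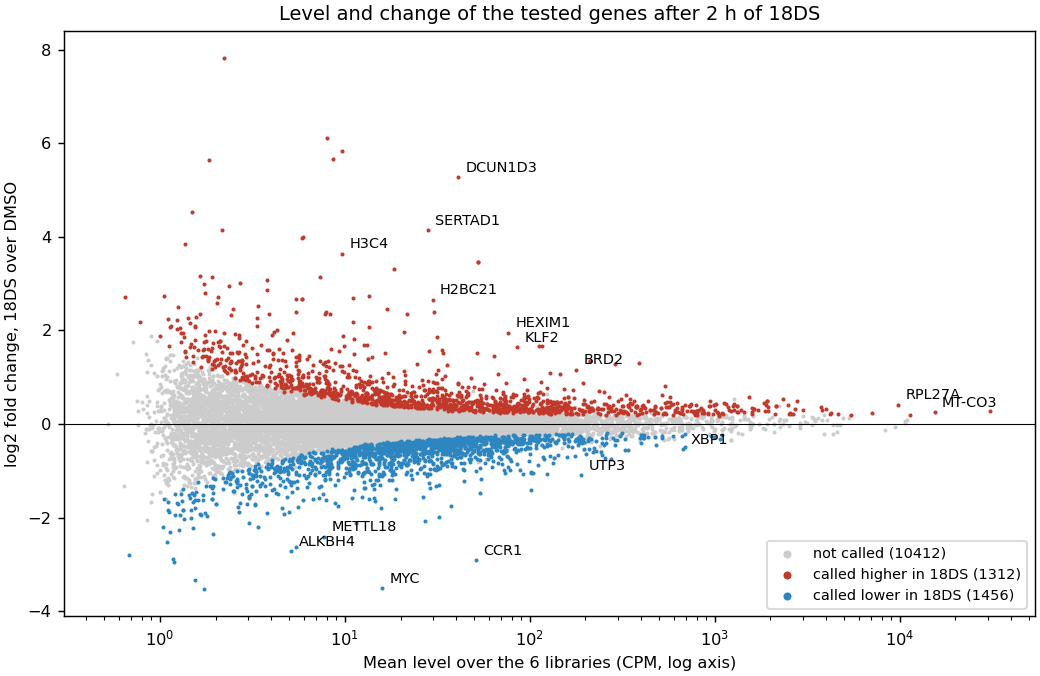
Each point is 1 of 13180 tested genes, with its mean CPM over the 6 libraries on a log axis and its log2 fold change of 18DS over DMSO. Red points (1312) were called higher and blue points (1456) lower, and the named genes run from DCUN1D3 at 5.27 to MYC at -3.51.

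The largest rise of a named gene was that of DCUN1D3, whose product is a membrane-anchored regulator of cullin neddylation. DCUN1D3 had 79.9, 70.4 and 89.3 CPM in the 18DS libraries, against 1.61, 1.77 and 2.82 CPM in the DMSO libraries. The groups were far apart, with a log2 fold change of 5.27 (SE 0.21, adjusted p = 1.05e-15), or 38.7-fold. SERTAD1, a regulator of CDK4 and of E2F-driven transcription, had 49.5, 55.5 and 55.3 CPM in 18DS and 2.64, 4.01 and 2.33 CPM in DMSO. It rose 17.7-fold (log2 fold change 4.15, SE 0.18, adjusted p = 2.80e-19). Identifiers without a symbol in the tables used here rose as well. ENSG00000237253 had 13.1, 18.2 and 16.2 CPM in 18DS, against 0.147, 0.482 and 0 CPM in DMSO, and 3 such identifiers with a mean of at least 5 CPM had a larger fitted rise than DCUN1D3. In all, 172 of the 1366 tested identifiers without a symbol were called higher and 89 lower.

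The 12 largest rises by the naming rule also held 6 histone genes (H3C14, H3C15, H3C4, H2AC11, H2BC21 and H2AC6), the zinc finger gene ZNF703 (2.73), the long noncoding RNA LINC01004 (2.67) and IER3 (2.67), an immediate early gene linked to cell survival. IER3 and its antisense gene IER3-AS1 had the same or nearly the same CPM in each library, as did H3C14 and H3C15, so each pair counts as a single, uncertain source of reads.

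**Figure D2:**
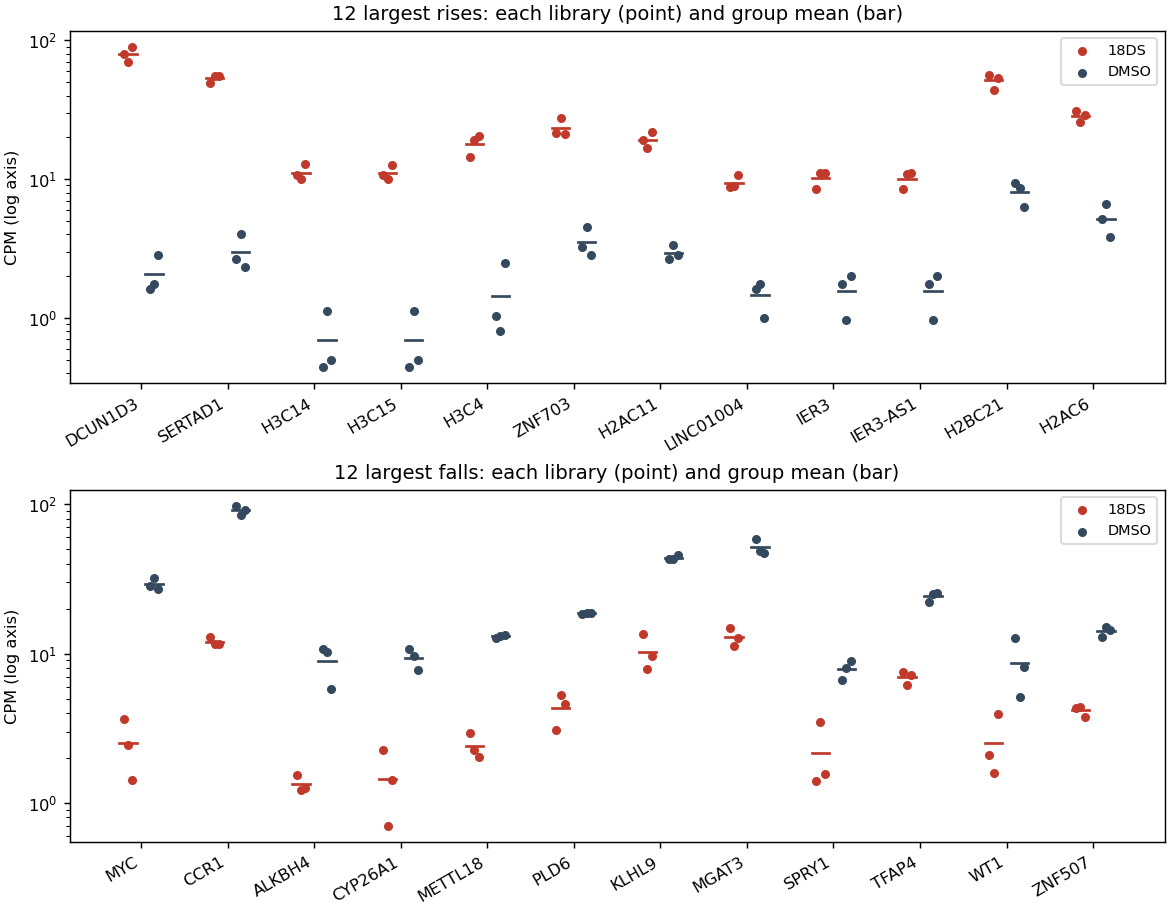
CPM on a log axis for the 12 largest rises (top) and falls (bottom), with each library as a point and the group mean as a bar, 18DS in red and DMSO in dark blue. The groups do not overlap for any of the 24 genes, which the naming rule required.

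Most tested members of a list of genes known to respond to BET inhibitors were higher in 18DS. Of the 12 tested genes on a list of such genes, 11 rose (91.7%, against 9.95% of all genes) and none fell. The median log2 fold change was 2.02, against -0.0033 over all tested genes. The list was chosen with earlier results of these data known. It holds DCUN1D3 and SERTAD1 but not MYC, which fell. Its share of rises is therefore a description of the listed genes and no test of a common direction. Its members H1-2, H2AC6, H2BC12, H2BC21, H2BC4 and H2BC5 are counted again among the histone genes below. The summed level of the list was 747 to 794 CPM in 18DS and 230 to 249 CPM in DMSO. HEXIM1, the P-TEFb inhibitor used as a marker of BET inhibition, had 124, 100 and 140 CPM in 18DS, against 33.5, 30.2 and 30.4 CPM in DMSO. Every 18DS library was above every DMSO library, and the rise was 3.87-fold (log2 fold change 1.95, SE 0.11, adjusted p = 5.85e-16). HEXIM1 overlaps HEXIM2-AS1 on the other strand, which rose by 1.53 on the log2 scale at 34.1 CPM, and the strand setting of the counting is not known here. ZCCHC24, a zinc finger gene, had 15.3, 20.1 and 19 CPM in 18DS and 3.82, 3.21 and 4.98 CPM in DMSO, 4.51-fold higher (SE of the log2 fold change 0.21, adjusted p = 5.19e-10). It too overlaps an identifier on the other strand, at 8.29 CPM with a rise of 2.35 on the log2 scale. SERTAD2, a relative of SERTAD1, rose less (0.80, SE 0.14, adjusted p = 6.29e-05). SERPINI1, at 3.09, 3.33 and 2.36 CPM in 18DS and 2.20, 1.12 and 1.16 CPM in DMSO, did not pass (0.94, adjusted p = 0.101).

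Histone genes, which encode the proteins that package DNA and in part give RNA without a poly(A) tail, rose widely and none of those tested fell. Of 28 tested members 19 rose (67.9%, against 9.95% of all genes), with a median log2 fold change of 0.96. The groups did not overlap in 22 members, against 35.3% of all genes. H3C14 and H3C15, with nearly the same reads, are counted as separate members. These were 3' mRNA libraries, and histone RNA without a tail was not measured separately. Only 40 of the 76 listed histone names matched an identifier, so the family is covered in part. H2BC21, an H2B gene, had 56.5, 43.9 and 54.0 CPM in 18DS and 9.40, 8.67 and 6.31 CPM in DMSO, a log2 fold change of 2.66 (SE 0.14, adjusted p = 1.44e-16). H2BC12, also an H2B gene, had 165, 181 and 163 CPM in 18DS, against 47.3, 60.7 and 52.0 CPM in DMSO, a log2 fold change of 1.67 (SE 0.09, adjusted p = 3.52e-16). Both were separated from the vehicle by several times the spread within a group. H2BC11 rose by 1.97, H2AC11 by 2.70, H2AC6 by 2.46 and H3C4, which encodes histone H3, by 3.64. The linker histone gene H1-2 rose by 0.75. H2BC4 was low (1.97, 3.68 and 4.72 CPM in 18DS; 1.47, 1.28 and 1.33 CPM in DMSO), and its call (adjusted p = 0.0124) was lost in 1 of 15 alternatives, at 0.107.

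The promoters of 3 of these H2B genes are printed because they carry the same 3 elements in the same order close to the start. They are the RefSeq windows from 250 bases before to 50 after the gene start on GRCh38.p14, at chr1:149886633-149886932 for H2BC21, chr6:27146809-27147108 for H2BC12 and chr6:27132746-27133045 for H2BC11, each read 5′ to 3′ on its own minus strand. Capitals mark TATAAA (the letters of a core promoter box that positions RNA polymerase), the CCAAT box and the octamer core ATTTGCA, known from H2B promoters, each searched on both strands, so that the reverse complement is marked too.
H2BC21: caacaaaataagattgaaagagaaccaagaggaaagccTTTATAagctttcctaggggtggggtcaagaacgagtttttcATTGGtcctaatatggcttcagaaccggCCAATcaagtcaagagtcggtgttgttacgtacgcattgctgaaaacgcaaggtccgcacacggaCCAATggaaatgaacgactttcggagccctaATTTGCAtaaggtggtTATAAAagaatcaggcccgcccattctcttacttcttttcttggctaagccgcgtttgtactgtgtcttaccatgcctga
H2BC12: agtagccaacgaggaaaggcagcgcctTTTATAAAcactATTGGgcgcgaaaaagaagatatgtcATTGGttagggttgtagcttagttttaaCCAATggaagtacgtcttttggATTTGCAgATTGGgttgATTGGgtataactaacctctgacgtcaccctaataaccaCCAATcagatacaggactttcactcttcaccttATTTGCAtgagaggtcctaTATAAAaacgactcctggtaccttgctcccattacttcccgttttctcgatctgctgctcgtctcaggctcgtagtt
H2BC11: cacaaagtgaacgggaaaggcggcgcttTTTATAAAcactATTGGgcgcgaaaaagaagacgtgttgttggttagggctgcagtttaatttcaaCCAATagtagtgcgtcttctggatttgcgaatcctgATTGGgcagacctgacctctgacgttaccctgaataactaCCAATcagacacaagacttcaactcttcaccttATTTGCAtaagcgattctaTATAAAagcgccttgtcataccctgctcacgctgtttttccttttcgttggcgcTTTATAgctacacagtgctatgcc
In all 3, an ATTTGCA lies at 46 to 47 bases before the start and a TATAAA at 27 to 30 bases before it. Among the 26 histone promoters found, 69.2% held a TATAAA, 84.6% a CCAAT and 38.5% an ATTTGCA, against 5.13%, 38.0% and 2.42% of the promoters of 8838 tested genes and 12%, 35.7% and 4.23% of all 27305 promoters in the table. A match is a stretch of letters and not a measured binding site.

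The box TATAAA was also more common among the other large rises. A TATAAA stood in 23.5% of the 162 promoters of genes that rose over 2-fold, in 3.80% of the 184 of genes that fell over 2-fold, and in 5.13% of those of tested genes. With the histone list left out, a step added after the data were seen, the share among large rises was 17.6% of 148 promoters. HEXIM1 was among them, at chr17:45148225-45148524 on the plus strand, with TATAAA and CCAAT in capitals.
HEXIM1: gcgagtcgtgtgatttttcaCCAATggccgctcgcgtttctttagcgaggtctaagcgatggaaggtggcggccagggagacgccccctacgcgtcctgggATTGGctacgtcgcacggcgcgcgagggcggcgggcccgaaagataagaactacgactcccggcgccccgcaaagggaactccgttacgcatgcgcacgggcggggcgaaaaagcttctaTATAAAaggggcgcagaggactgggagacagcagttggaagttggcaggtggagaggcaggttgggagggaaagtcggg
Its TATAAA starts 29 bases before the gene start. The start sites used by these cells were not measured, since reads came from transcript 3' ends. The other motifs plotted are the forkhead site GTAAACA, the AP-1 site TGANTCA, the cAMP response core TGACG and the GC box GGGCGG, held by 2.24%, 3.86%, 36.4% and 70.9% of the promoters of tested genes and by 3.41%, 7.76%, 25% and 44.6% of those in the table.

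**Figure D3:**
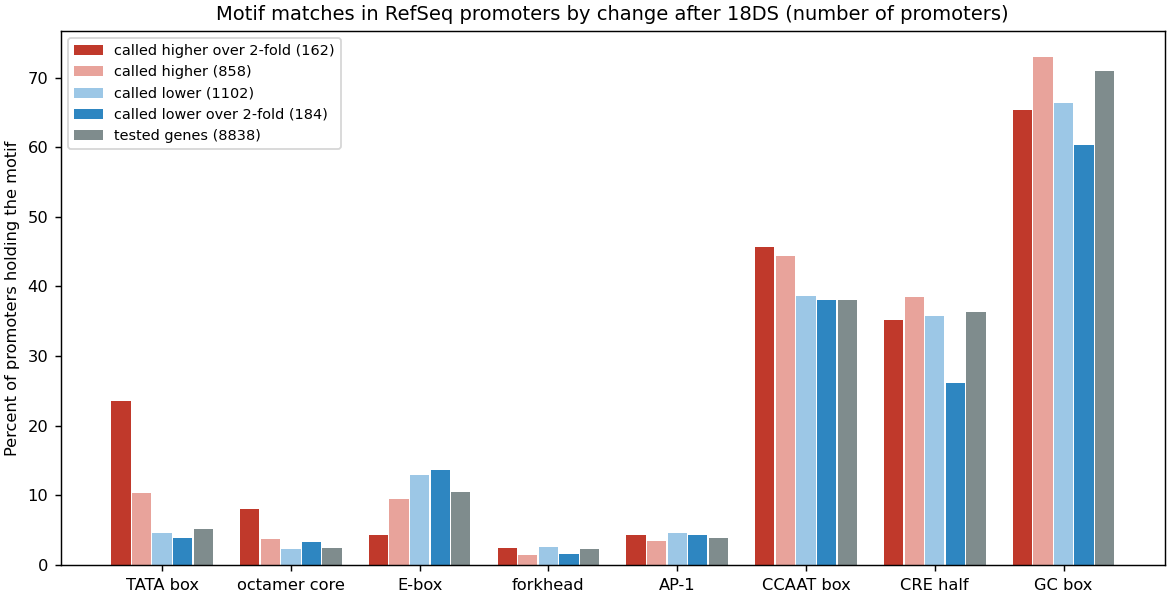
Bars give the percent of RefSeq promoters that hold each motif on either strand, for genes called higher over 2-fold, called higher, called lower, called lower over 2-fold and for the tested genes, with the number of promoters in the legend. The TATA box stands in 23.5% of the promoters of large rises and in 3.80% of those of large falls, against 5.13% of tested genes.

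BRD2 and BRD3 rose, while the wider elongation machinery did not move as a block. BRD2, a BET protein, had 229, 256 and 255 CPM in 18DS and 116, 101 and 114 CPM in DMSO, a log2 fold change of 1.16 (SE 0.08, adjusted p = 1.32e-13). BRD3 rose by 0.63 (adjusted p = 0.00279). Every 18DS library was above every DMSO library for both genes. Of 35 tested genes for P-TEFb, BET and elongation factors, 5 rose (14.3%) and 6 fell (17.1%), with a median of -0.03. The shares of all genes were 9.95% higher and 11% lower. MEPCE, which caps and holds the 7SK RNA of the inhibitory complex, rose by 0.67, while its partner LARP7 fell by 0.63, the elongation factor ELL by 0.85 and the pausing factor NELFA by 0.54.

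MYC had the largest fall among named genes. It had 3.65, 2.45 and 1.42 CPM in 18DS, against 28.5, 32.1 and 27.1 CPM in DMSO. The fall was 11.4-fold, with a log2 fold change of -3.51 (SE 0.20, adjusted p = 4.21e-16). The MAX network holds the MYC partners and rivals that share the dimerisation partner MAX. Of its 12 tested genes 3 fell (25%, against 11% of all genes) and 2 rose (16.7%, against 9.95%). The falls numbered 1 without 18DS replicate 2, and the rises 1 without DMSO replicate 1. MXD1, a MAX-binding repressor, had 10.7, 8.58 and 12.3 CPM in 18DS and 4.11, 4.33 and 3.99 CPM in DMSO (1.34, SE 0.22, adjusted p = 3.13e-05), and MXD4 rose by 0.41. MAX fell by 0.34 (adjusted p = 0.007) and MGA by 0.55, calls that 1 and 9 of 16 alternatives did not keep. MYCN, MNT, MXI1, MLX, MLXIP, MXD3 and PVT1 did not pass, with log2 fold changes from -0.51 for MYCN to 0.05 for MXD3.

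Other large falls came from varied families. CCR1, a chemokine receptor that plasma cells and myeloma cells carry, had 12.9, 11.6 and 11.6 CPM in 18DS and 97.2, 84.8 and 90.9 CPM in DMSO, and its log2 fold change of -2.91 (SE 0.12) had the smallest adjusted p of the genes named (1.40e-20). ALKBH4, a demethylase of the AlkB family, had 1.55, 1.23 and 1.26 CPM in 18DS, against 10.7, 10.3 and 5.81 CPM in DMSO (-2.71, SE 0.31, adjusted p = 2.78e-08). KLHL9, a substrate adaptor of cullin 3 ligases, had 13.5, 7.88 and 9.60 CPM in 18DS and 43.3, 42.7 and 45.5 CPM in DMSO (-2.06, SE 0.14, adjusted p = 8.09e-14). No library of one group reached the other in these 3 genes. The rest were CYP26A1, which degrades retinoic acid (-2.63), the histidine methyltransferase METTL18 (-2.41), the mitochondrial phospholipase PLD6 (-2.13), the glycosyltransferase MGAT3 (-1.99), the receptor kinase antagonist SPRY1 (-1.89), and the transcription factor genes TFAP4 (-1.79), WT1 (-1.77) and ZNF507 (-1.75). ALKBH4, METTL18 and PLD6 overlap more abundant genes on the other strand (ORAI2, C1orf112 and MPRIP), which changed by -0.20, -0.10 and 0.32 on the log2 scale.

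Ribosome biogenesis genes, many of them known MYC targets, had a large share of members lower. Of 107 tested members 52 fell (48.6%, against 11% of all genes) and 1 rose, with a median log2 fold change of -0.31, and their summed level was 8233 to 8265 CPM in 18DS and 9580 to 9602 CPM in DMSO. UTP3, a factor of the small subunit processome, had 130, 105 and 126 CPM in 18DS and 271, 256 and 248 CPM in DMSO (-1.10, SE 0.08, adjusted p = 1.47e-12). RRS1, needed for large subunit assembly, had 30.3, 23.3 and 31.3 CPM in 18DS, against 71.1, 82.0 and 83.2 CPM in DMSO (-1.47, SE 0.11, adjusted p = 3.99e-12). In both genes the DMSO libraries lay at about the same level and every 18DS library lay far beneath them. BRIX1 fell by 1.18, WDR43 by 0.86, IMP3 by 0.75 and GTPBP4 by 0.67; IMP3 overlaps an identifier of 254 CPM on the other strand with a change of -0.73. The subunits and factors of RNA polymerases I and III, which make ribosomal and transfer RNA, followed with 13 of 42 lower (31%) and 2 higher (4.76%, median -0.23). Without 18DS replicate 3 8 members were lower. Among the falls were CRCP (-1.02), GTF3C4 (-0.91), POLR1B (-0.91), POLR1E (-0.88), POLR1G (-0.64) and POLR1C (-0.44). Of 23 tRNA synthetase genes 3 fell (13%, close to the background), EEF1E1 by 0.54, TARS1 by 0.27 and NARS1 by 0.23, and none rose; NARS1 and TARS1 lost the call in 8 and 2 of 16 alternatives.

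The E-box CACGTG, the site that MYC-MAX dimers are known to bind, was common in ribosome biogenesis promoters whether or not the gene fell. It stood in 36.6% of the 93 promoters found and in 38.1% of the 42 of members that fell, against 10.5% of tested genes and 7.43% of all promoters in the table. Among genes called lower it stood in 12.9% of 1102 promoters, and among those called higher in 9.44% of 858. The 3 falling members with an E-box and the smallest adjusted p are shown, WDR43 (chr2:28894417-28894716, plus strand), UTP25 (chr1:209827722-209828021, plus strand) and SURF6 (chr9:133336139-133336438, minus strand), with CACGTG in capitals, on GRCh38.p14 from RefSeq. UTP25 and SURF6 were picked after their values were seen.
WDR43: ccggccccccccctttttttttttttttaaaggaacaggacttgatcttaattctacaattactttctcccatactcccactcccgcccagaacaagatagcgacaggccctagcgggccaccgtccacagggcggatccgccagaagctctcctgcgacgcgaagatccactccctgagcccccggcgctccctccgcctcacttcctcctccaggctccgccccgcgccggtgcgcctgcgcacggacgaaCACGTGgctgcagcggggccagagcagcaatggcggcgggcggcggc
UTP25: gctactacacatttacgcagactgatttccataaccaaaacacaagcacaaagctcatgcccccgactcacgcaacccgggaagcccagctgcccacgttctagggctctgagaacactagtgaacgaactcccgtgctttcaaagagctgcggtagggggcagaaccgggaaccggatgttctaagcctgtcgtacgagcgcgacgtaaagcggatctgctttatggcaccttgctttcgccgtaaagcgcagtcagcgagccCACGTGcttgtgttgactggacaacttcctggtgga
SURF6: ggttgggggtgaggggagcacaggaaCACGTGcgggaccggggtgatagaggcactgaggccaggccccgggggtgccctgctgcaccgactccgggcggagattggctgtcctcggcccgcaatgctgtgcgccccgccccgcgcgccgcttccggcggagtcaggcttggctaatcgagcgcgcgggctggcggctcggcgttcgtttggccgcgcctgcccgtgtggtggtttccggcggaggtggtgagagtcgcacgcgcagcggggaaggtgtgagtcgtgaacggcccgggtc
The match starts 4 bases into the transcript in WDR43, 15 bases into it in UTP25, and 224 bases before the start in SURF6. UTP25 fell by 1.63 (SE 0.21) and SURF6 by 1.07 (SE 0.15), and UTP3, BRIX1, IMP3 and GTPBP4 held no CACGTG in these windows.

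Ribosomal protein genes were called in the other direction. Of 78 tested genes for cytosolic ribosomal proteins 37 rose and none fell (median 0.18). The share that rose was 47.4%, against 9.95% of all genes and 22.8% of genes of 100 CPM or more. Together they held 172476 to 176655 CPM in 18DS and 151171 to 162550 CPM in DMSO. RPL27A, the gene with a symbol that gained most CPM, had 10064, 11672 and 11813 CPM in 18DS and 7389, 8642 and 9182 CPM in DMSO (0.41, SE 0.08, adjusted p = 0.000135). RPL10 had 1223, 1396 and 1342 CPM in 18DS, against 900, 969 and 1085 CPM in DMSO (0.42, SE 0.07, adjusted p = 5.82e-05). The rises are small and the libraries of each group spread widely, though without overlap in these genes. The count depends on the scaling, with 21 higher and 1 lower under library totals and 47 higher under upper-quartile factors. The translation factor list had 9 of 51 higher (17.6%, or 5 genes with library totals alone) and 3 lower (5.88%, against 11% of all genes). The poly(A)-binding protein genes PABPC4 (0.42) and PABPC1 (0.38) were higher and EIF4E, the cap-binding protein, lower (-0.41).

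Of 81 nuclear genes for oxidative phosphorylation 21 rose, 2 fell and 58 did not pass (median 0.09). The share that rose was 25.9%, against 9.95% of all genes and 22.8% of genes of 100 CPM or more. Levels were not matched between the list and all genes. Among the rises were NDUFS7 at 0.61, whose counts are close to those of an overlapping identifier, and ATP5MC1 at 0.37, while UQCRFS1 fell by 0.36; with library totals alone 11 rose, and without 18DS replicate 2 13 rose. Of the 13 genes of the mitochondrial genome 9 did not pass and 4 rose (30.8%, beside the same 22.8%). They were MT-ND2 (0.36), MT-CO1 (0.29), MT-CO3 (0.26) and MT-CO2 (0.24). MT-CO3 had 16848, 16833 and 16864 CPM in 18DS and 14262, 13714 and 14281 CPM in DMSO, 2 tight groups. The mitochondrial share of counts given above moved in the same direction, and its part in these calls was not tested. Of 76 mitochondrial ribosome genes 10 were lower (13.2%, close to the 11% of all genes; 18 with library totals alone) and 2 higher, the lowest values being those of MRPS30 (-0.85), MRPL15 (-0.57) and MRPL44 (-0.54).

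**Figure D4:**
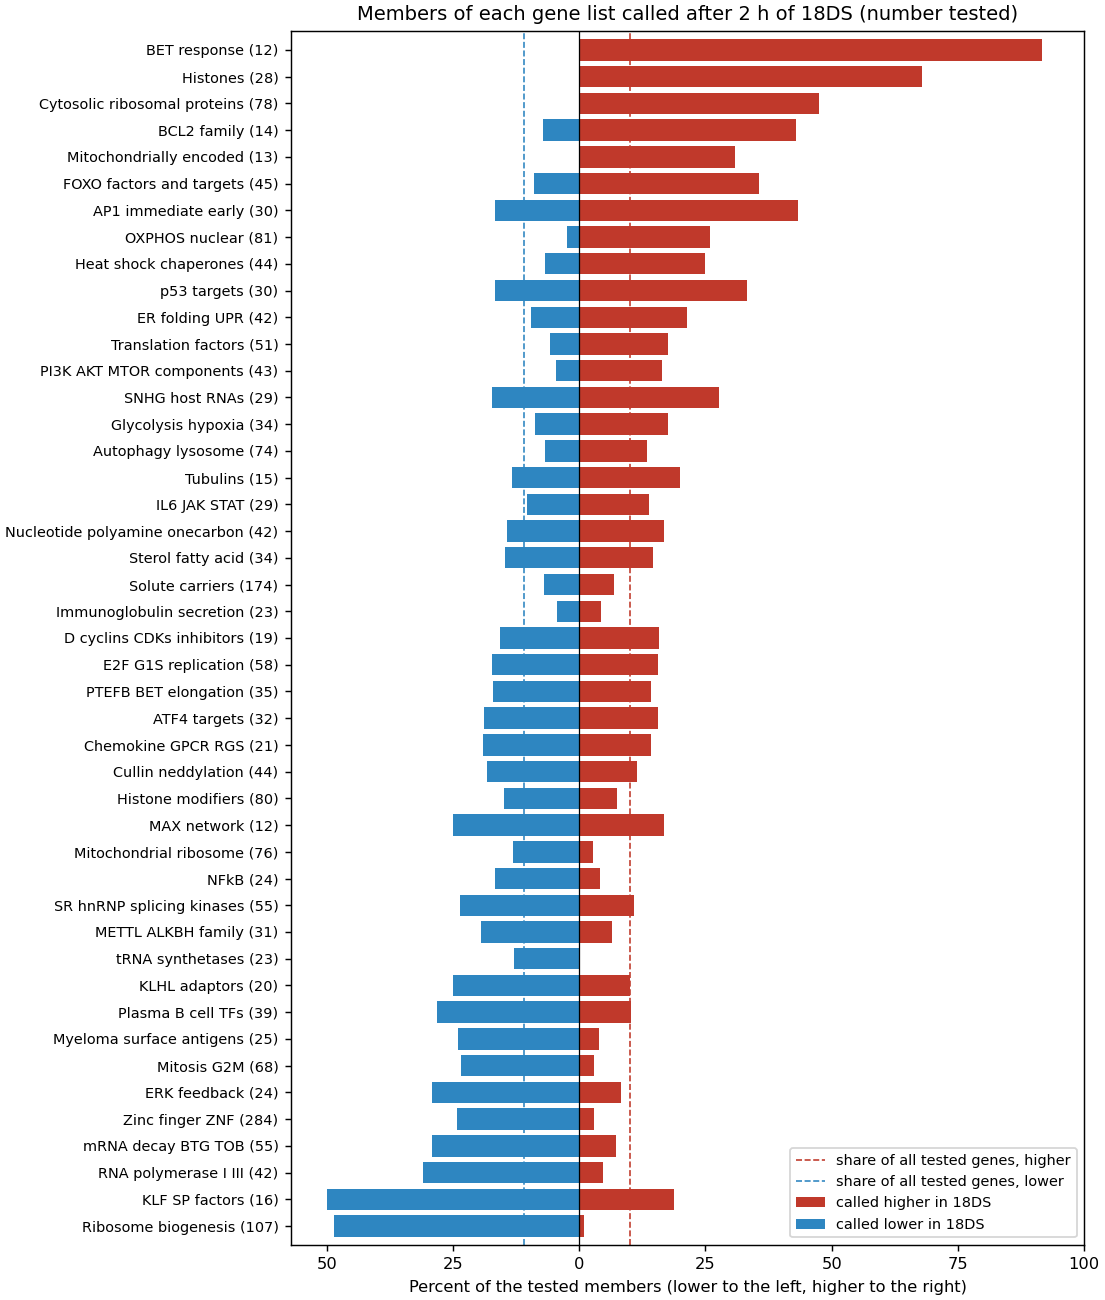
For each gene list with at least 10 tested members (number in parentheses), red bars give the percent of members called higher in 18DS and blue bars the percent called lower. Dashed lines mark the shares among all tested genes, 9.95% higher and 11% lower. BET response genes, histones and ribosomal proteins are at the top and ribosome biogenesis genes at the bottom.

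FOXO targets are genes that PI3K signalling holds down in many cells. On a list of FOXO factors and their targets more genes rose than fell. Of 45 tested members 16 were higher (35.6%, against 9.95% of all genes) and 4 lower (8.89%, against 11%), with a median of 0.22. The factor genes FOXO1, FOXO3, FOXO4 and FOXO6 did not pass. KLF2, a FOXO target and a transcription factor of lymphocyte quiescence, had 131, 102 and 156 CPM in 18DS and 37.6, 43.8 and 43.9 CPM in DMSO (1.64, SE 0.16, adjusted p = 1.16e-05). IRS2, an adaptor between the insulin receptor and PI3K, had 22.9, 23.3 and 26.9 CPM in 18DS, against 8.81, 9.79 and 6.81 CPM in DMSO (1.52, SE 0.17, adjusted p = 3.00e-08). BCL6, a transcriptional repressor of germinal centre B cells, had 5.48, 7.7 and 6.77 CPM in 18DS and 0.734, 0.963 and 0.997 CPM in DMSO (2.86, SE 0.37, adjusted p = 3.84e-07). In these 3 genes every 18DS library was above every DMSO library. ARRDC3 rose by 0.99 and the CDK4 and CDK6 inhibitor gene CDKN2D by 0.95, while TRIB1, a pseudokinase gene, fell by 1.17. Among 43 genes for components of PI3K, AKT and mTOR signalling 7 rose (16.3%) and 2 fell (4.65%), with a median of 0.09. The rises numbered 3 without DMSO replicate 1, 4 without 18DS replicate 2 and 11 with upper-quartile factors. Besides IRS2, EIF4EBP2 (0.38) and the regulatory subunit gene PIK3R1 (0.47) rose, and the mTOR inhibitor gene DEPTOR (-0.55) was among those that fell. Forkhead letters GTAAACA stood in 7 of the 38 promoters of the FOXO list (18.4%), against 2.24% of those of tested genes, and in 2 of 38 (5.26%), against 1.34%, in the shorter window that starts 150 bases before the gene start.

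Of 39 tested transcription factor genes of plasma and B cells 11 fell (28.2%, against 11% of all genes), 4 rose and 24 did not pass (median -0.11). IRF4, on which myeloma cells are known to depend, had 195, 188 and 187 CPM in 18DS and 300, 316 and 291 CPM in DMSO (-0.67, SE 0.07, adjusted p = 9.05e-09). XBP1, the secretory pathway regulator, had 650, 505 and 503 CPM in 18DS, against 828, 791 and 782 CPM in DMSO (-0.53, SE 0.08, adjusted p = 5.35e-06). TFAP4 fell by 1.79, MYB by 1.55, ZBTB38 by 1.07 and KLF13 by 0.92. The rises were those of BCL6 (2.86), ID3 (1.35), MYBL2 (0.63) and NSD2 (0.42), of which ID3 and MYBL2 were named after their values were seen. In this cell line some of these genes also mark the cell type. Of the 10 plasma cell markers 6 were lower (60%, against 11% of all genes) and none higher (median -0.37). They were IRF4, XBP1 and PRDM1 (-0.40), which drives plasma cell differentiation, and the antigen genes TNFRSF17, SLAMF7 and SDC1. The factor, marker and antigen lists thus share members and are not separate sets of falls. In bulk RNA, fewer cells of a kind and less RNA per cell cannot be told apart.

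Surface antigens of myeloma followed in part, with 6 of 25 lower (24%, against 11% of all genes) and 1 higher (4%, against 9.95%). TNFRSF17, which encodes the therapy target BCMA, had 225, 222 and 223 CPM in 18DS and 274, 295 and 315 CPM in DMSO (-0.40, SE 0.07, adjusted p = 0.00011). SLAMF7 fell by 0.48, TFRC by 0.43, CD48 by 0.39 and SDC1, which encodes CD138, by 0.34, while BST2 rose by 0.39. CD38 was low in both groups (7.03, 3.50 and 5.35 CPM in 18DS; 6.46, 3.69 and 4.65 CPM in DMSO) and did not pass (0.11, adjusted p = 0.811). Immunoglobulin and secretion genes mostly did not pass, with 1 of 23 higher (SSR4, 0.28) and 1 lower, TENT5C, a poly(A) polymerase of plasma cells, which fell by 0.98. JCHAIN, at 3033, 2627 and 2695 CPM in 18DS and 2927, 2990 and 2995 CPM in DMSO, had overlapping groups (-0.09, adjusted p = 0.346).

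Receptors, signal regulators and their feedback genes gave a mixed picture, beside 9.95% higher and 11% lower of all genes. Of 21 chemokine receptor and RGS genes, 4 fell (19%) and 3 rose (14.3%, or 1 gene without 18DS replicate 2 or DMSO replicate 1). RGS16 was at -1.26 and RGS2 at 1.88, both regulators of G protein signalling. In the IL-6 and JAK-STAT list 3 of 29 fell (10.3%) and 4 rose (13.8%; 2 without 18DS replicate 3, 6 without 18DS replicate 2), about the shares of all genes, with the receptor gene IL6R at -0.35 and IL10RA at 0.83. PIM3 fell by 0.52, and PIM2, an abundant kinase gene in these cells, had 2651, 3165 and 2898 CPM in 18DS and 2756, 2980 and 2906 CPM in DMSO, with no difference detected (0.01, 95% confidence interval -0.12 to 0.15). In the NF-kB list 4 of 24 fell (16.7%, or 1 gene without DMSO replicate 1 and 6 without 18DS replicate 1). Among them were BCL3 (-0.70), RELA (-0.37) and NFKB1 (-0.44), while NFKBIZ rose (1.51). RELA lost its call in 1 and NFKB1 in 2 of 16 alternatives. Of 24 ERK feedback genes 7 fell (29.2%) and 2 rose (8.33%). DUSP4, a phosphatase gene of that pathway, had 53.5, 52.3 and 51.3 CPM in 18DS, against 99.8, 102 and 110 CPM in DMSO (-0.98, SE 0.09, adjusted p = 1.58e-10), DUSP2 fell by 0.95 and DUSP7 by 0.76.

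The list of AP-1 and immediate early genes had 13 of 30 higher (43.3%, against the 9.95% of all genes) and 5 lower (median 0.49). The list is a broad one, and its rises include HEXIM1, ID1 and ID3. JUN, a subunit of the AP-1 transcription factor, had 79.0, 74.6 and 77.3 CPM in 18DS and 27.2, 25.7 and 27.9 CPM in DMSO (1.52, SE 0.10, adjusted p = 1.16e-14). IER5, a regulator of the heat shock factor, had 194, 160 and 181 CPM in 18DS, against 52.4, 55.2 and 59.8 CPM in DMSO (1.68, SE 0.09, adjusted p = 1.44e-16). Each group was tight and the groups lay well apart. JUND rose by 0.91 and PPP1R15A, a phosphatase regulator of the stress response, by 1.29.

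In the BCL2 family, which sets the threshold for apoptosis, 6 of 14 genes rose (42.9%, against 9.95% of all genes) and 1 fell (median 0.25). The pro-death members PMAIP1 and BBC3 rose. PMAIP1 had 23.9, 23.6 and 25.7 CPM in 18DS and 13.1, 11.2 and 12.1 CPM in DMSO (1.00, SE 0.14, adjusted p = 3.05e-06), and BBC3 had 7.17, 6.13 and 8.82 CPM in 18DS, against 2.79, 4.17 and 4.32 CPM in DMSO (0.98, SE 0.23, adjusted p = 0.00232). MCL1, a survival gene of myeloma cells, rose as well, with 427, 436 and 422 CPM in 18DS and 360, 318 and 310 CPM in DMSO (0.38, SE 0.07, adjusted p = 0.000185). BCL2L12 rose by 0.48, and BAX and BAD by 0.44 and 0.41, which 11 and 7 of 16 alternatives did not keep. The pro-death gene BMF fell by 1.12. BCL2L11, which encodes BIM, had 35.5, 34.7 and 38.7 CPM in 18DS and 27.2, 29.4 and 32.6 CPM in DMSO and lay beside the threshold (0.29, adjusted p = 0.057; it passed in 3 of 16 alternatives). BCL2 (-0.19), BCL2L1 (0.19), BID (0.21), BAK1 (-0.28), BCL2L13 (0.04) and BNIP3L did not pass. Of 30 p53 target genes 10 rose (33.3%, against 9.95% of all genes) and 5 fell (16.7%, against 11%). The members moved in opposite directions. SESN2, a sensor of amino acids and stress, rose by 1.85. The nuclease gene AEN fell by 1.75, MDM2, which degrades p53, by 0.87, and the death receptor gene TNFRSF10A by 0.83.

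Cell cycle genes changed in both directions, and their counts stand beside 9.95% higher and 11% lower of all genes. Among 19 genes for D and E cyclins, their kinases and inhibitors 3 rose and 3 fell (15.8% each). CCND2, the D cyclin of this line, had 208, 180 and 190 CPM in 18DS and 343, 278 and 255 CPM in DMSO (-0.60, SE 0.10, adjusted p = 6.66e-05). CDKN1A, the p21 inhibitor gene, had 17.4, 14.9 and 17.5 CPM in 18DS, against 10.4, 7.55 and 8.80 CPM in DMSO (0.89, SE 0.17, adjusted p = 0.000264). The groups did not overlap in either gene. The phosphatase gene CDC25A fell by 0.89 and CDK4 by 0.33, a gene whose counts are nearly those of TSPAN31, which it overlaps. CDKN2D and CDKN2B (0.64) rose, the second call lost in 3 of 16 alternatives, and CCND3, CCNE1, CCNE2, CDK2, CDK6, CDKN1B, CDKN1C, CDKN2A, CCNG1, CCNG2, RB1, RBL1 and RBL2 did not pass, with values from -0.25 for RB1 to 0.64 for CCNG2. Of 58 replication and E2F genes 9 rose (15.5%, or 5 genes with library totals alone) and 10 fell (17.2%). The factors E2F8 (-1.63), E2F6 (-1.11) and E2F2 (-0.83) were lower. The ligase gene LIG1 (0.71) and histone chaperone gene ASF1B (0.64) were higher. Of 68 mitosis genes 16 fell (23.5%) and 2 rose (2.94%), with a median of -0.17. AURKA, the mitotic kinase, had 50.6, 45.2 and 46.9 CPM in 18DS and 97.0, 102 and 97.8 CPM in DMSO (-1.05, SE 0.09, adjusted p = 2.82e-11), and ARHGAP11A (-0.75), CCNA2 (-0.53, beside the overlapping EXOSC9 at -0.64), UBE2C (-0.46) and MKI67 (-0.42) fell less. With library totals alone 25 mitosis genes were lower.

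The ZNF and KLF families had more members lower than higher, beside 11% lower and 9.95% higher of all genes. The share higher was 2.82% of ZNF genes. Of 284 tested ZNF genes, which encode zinc finger proteins, 69 fell (24.3%) and 8 rose (median -0.21), and the summed level was 3042 to 3132 CPM in 18DS and 3461 to 3508 CPM in DMSO. ZNF639 fell by 1.57, ZNF711 by 1.24, ZNF22 by 0.71 and ZNF16 by 2.21. Of 16 KLF and SP genes 8 fell (50%) and 3 rose (18.8%), with a median of -0.57. The falls numbered 4 without 18DS replicate 3 and 5 without DMSO replicate 2. KLF13 had 58.9, 46.7 and 52.9 CPM in 18DS, against 103, 96.3 and 101 CPM in DMSO (-0.92, SE 0.10, adjusted p = 5.57e-09). KLF11 (-1.71), KLF16 (-0.93), SP2 (-0.82), KLF15 (-0.77), KLF3 (-0.65), SP1 (-0.64) and KLF6 (-0.50) fell too, of which KLF15, KLF3, SP1 and SP2 lost the call in 2 to 4 of 16 alternatives. KLF2, KLF5 (1.57) and KLF7 (0.84) rose, and KLF7 kept the call in 8 of 16 alternatives. KLF9 (-0.94), KLF10 (0.04), KLF12 (0.46), SP3 (-0.46) and SP4 (-0.21) did not pass.

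18DS and JQ1 were given at the same dose of 250 nM for the same time, and were compared directly as the 1 pair of compounds at matched dose. In the same fit 549 of 13180 genes differed (4.17%), 313 higher in 18DS (2.37%) and 236 lower (1.79%), and 2541 had an unadjusted p under 0.05. This count rests on single libraries, and it became 1027, 215 and 159 without 18DS replicates 1, 2 and 3, and 317, 123 and 105 without JQ1 replicates 1, 2 and 3. The values against DMSO that follow share the 3 DMSO libraries, and against them 801 genes changed in JQ1 (6.08%) and 1082 in BKM120 (8.21%).

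The BET markers DCUN1D3 and SERTAD1 were higher in 18DS than in JQ1. DCUN1D3 had 79.9, 70.4 and 89.3 CPM in 18DS and 34.3, 41.2 and 39.1 CPM in JQ1, a log2 difference of 1.06 (95% confidence interval 0.78 to 1.35, adjusted p = 6.33e-05). SERTAD1 differed by 0.73 (0.47 to 0.99, adjusted p = 0.000871), and JUN by 0.56 (0.38 to 0.74, adjusted p = 0.000313). For HEXIM1 the difference was 0.29 (0.09 to 0.49, adjusted p = 0.0818), for H2BC21 0.21 (-0.02 to 0.44, adjusted p = 0.309) and for BRD2 0.25 (0.09 to 0.41, adjusted p = 0.0599), none past the threshold after adjustment. These intervals are for single genes. MYC, with 3.65, 2.45 and 1.42 CPM in 18DS and 2.23, 2.90 and 2.45 CPM in JQ1, had overlapping groups and a difference of 0.02 (-0.59 to 0.63, adjusted p = 0.982). IRF4 differed by -0.04 (-0.19 to 0.10) and CDKN1A by 0.08 (-0.25 to 0.41). Lower in 18DS than in JQ1 were ALKBH4, by -1.59 (-2.29 to -0.88, adjusted p = 0.00807), KLHL9, by -0.96 (-1.27 to -0.65, adjusted p = 0.000289), and CCR1, by -0.54 (-0.81 to -0.27, adjusted p = 0.0183).

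Several lists were higher in 18DS than in JQ1 in a larger share than the 2.37% of all genes. The list of FOXO factors and targets had 10 of 45 members higher and 0 lower, ribosomal protein genes 20 of 78 and 0, and respiratory chain genes 11 of 81 and 1. KLF2 had 131, 102 and 156 CPM in 18DS and 59.0, 39.7 and 49.4 CPM in JQ1 (difference 1.39, 1.05 to 1.74, adjusted p = 0.000731). Against DMSO, KLF2 changed by 1.64 in 18DS, 0.25 in JQ1 and 2.80 in BKM120, IRS2 by 1.52, 0.35 and 1.53, and BBC3 by 0.98, 0.09 and 2.25. BKM120 was given at 1 µM, a different dose, so its values stand beside the others without a test. PIM2 differed by 0.54 between 18DS and JQ1 (0.40 to 0.67, adjusted p = 1.38e-05), with 0.01 in 18DS, -0.53 in JQ1 and 0.59 in BKM120 against DMSO. Histone genes had 7 of 28 higher than in JQ1, and BET response genes 5 of 12, with some genes on both lists. Ribosome biogenesis genes had 10 of 107 lower and none higher, with a median against DMSO of -0.31 in 18DS, -0.19 in JQ1 and -0.17 in BKM120. The sterol regulator gene INSIG1 had 210, 197 and 208 CPM in 18DS and 334, 331 and 346 CPM in JQ1 (difference -0.72, -0.87 to -0.56, adjusted p = 3.36e-07). INSIG1 changed by 0.55 in 18DS, 1.27 in JQ1 and -0.81 in BKM120 against DMSO, and CDKN1A by 0.89, 0.81 and -1.42. MYC changed by -3.51, -3.53 and 0.81 in the same order.

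**Figure D5:**
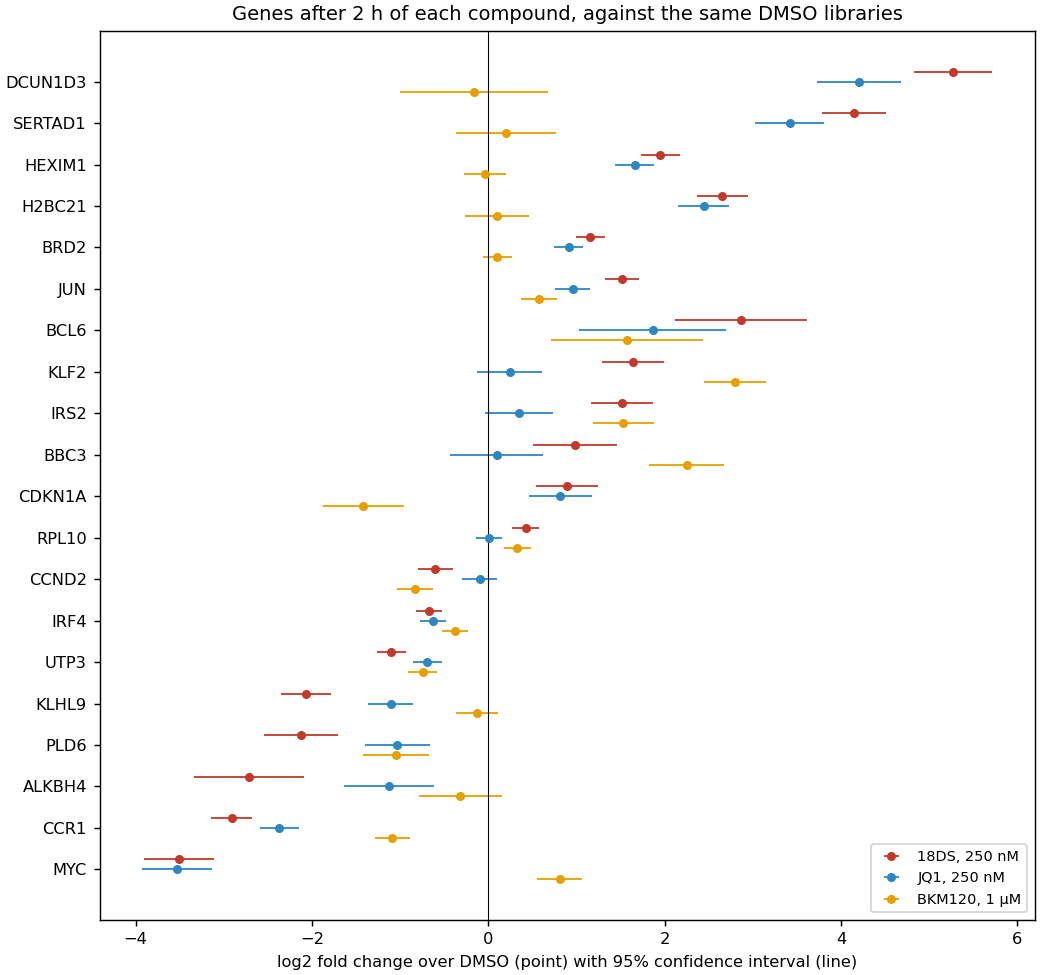
Log2 fold changes over DMSO with 95% confidence intervals for 20 genes after 18DS (red), JQ1 (blue) and BKM120 (orange), each against the same 3 DMSO libraries. KLF2, IRS2 and BBC3 are near 0 in JQ1 and above 0 in 18DS and BKM120, and MYC is at -3.51, -3.53 and 0.81.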

How the data were processed

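The authors deposited raw counts per Ensembl gene, whole numbers with no normalization, for 3' mRNA libraries (QuantSeq, single-end reads) of OPM2 cells. Per the submitters' processing notes, the tools were HISAT2 2.1.0 and SAMtools 1.9, featureCounts from Subread, limma, and for the raw reads cutadapt 1.7, FastQC 0.11.5 and bcl2fastq 2.17.1.14, on the build hg19. The sources used here do not give the annotation release or the strand setting. Reads at transcript 3' ends make CPM comparable between genes without a length correction, but a shifted poly(A) site can change a count.

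Counts were tested in R 4.3.3 with edgeR 4.0.16: filterByExpr (minimum count 10, total 15), TMM, and 1 robust quasi-likelihood fit over all 12 libraries (common biological coefficient of variation 0.0862), with Benjamini-Hochberg adjustment over 13180 genes. Alternatives used limma 3.58.1 and DESeq2 1.42.0, and figures Python 3.11.15 with matplotlib 3.10.9. On simulated data with 200 of 13180 genes changed, the 18DS test recovered 64% of 1.5-fold, 100% of 2-fold and 100% of 4-fold rises and 90% of falls to 0.5-fold, with 12 of 189 calls false. The simulation changed far fewer genes than the 2768 called in the data, so these shares need not hold for the real comparison. Symbols came from a table of gene names, and 1366 tested identifiers had none. Promoters came from RefSeq (GRCh38.p14) by symbol, for 8838 of 11800 tested genes with a symbol. No coordinates are given for the counted genes, whose build differs.

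Genes and the 52 lists (47 of a pathway or family, 52 entries unmatched) were chosen with earlier results of these data known. Named genes are the 12 largest rises and falls among called genes with a mean of 5 CPM and no overlap between groups, the 8 largest CPM gains and losses, 15 fixed genes, and per list the 6 members with the smallest adjusted p (every tested member for lists of up to 20). Lists are described by counts and medians only, and some named genes are not reported here. P-values measure the spread between libraries described as biological triplicates.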

Additional observations from a re-analysis of the deposited data

How the results depend on the processing

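The number of genes changed by 18DS stayed within 1.5 times of 2768 in every alternative tried: it was 2923 with library totals, 2888 with upper-quartile factors, 2762 with DESeq2 size factors, 2638 without the expression filter, 2557 with a minimum count of 30, 2697 without the robust option, 2333 with the 2 groups alone, 2239 with DESeq2's Wald test and 2691 with limma-voom, and 1909 to 3026 with 1 library left out. Scaling moved the split: 898 rose and 2025 fell with library totals, and 1675 rose and 1213 fell with upper-quartile factors, where the median of all genes was -0.076 and 0.046. The replicate number as a block gave 2667 genes. Same-numbered 18DS and DMSO libraries correlated at 0.132, 0.151 and -0.0072 in their deviations from the group means, and 18DS replicate 3 correlated best with DMSO replicate 1 (0.0709), so the numbers were not taken to pair the samples. Genes that differed between 18DS and JQ1 ranged over 105 to 1027 with 1 library left out, and the cause was not tested. Of the values of single named genes under the alternatives, 5445 stayed on their side of the threshold, 136 lost the call and 43 gained it; no gene called in the 18DS comparison changed direction, while fitted changes of genes that were not called could lie on either side of 0. Depth limits genes under 2 CPM, of which 9.46% were called.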

Other observations

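Chaperone genes had more members higher than lower, and ATF4 targets did not. The counts below stand beside 9.95% higher and 11% lower of all genes. Of genes of 100 CPM or more, 22.8% were higher. Of 44 heat shock and chaperone genes 11 rose (25%, against 9.95% of all genes) and 3 fell (median 0.09), among them DNAJB1, a heat shock factor target (123, 120 and 119 CPM in 18DS; 70.3, 70.5 and 78.9 CPM in DMSO; log2 fold change 0.72, adjusted p = 1.13e-07), and AHSA1 (0.49); DNAJC2 fell by 0.69. Of 42 endoplasmic reticulum genes 9 rose and 4 fell (2 without 18DS replicate 2 or DMSO replicate 1, 8 with library totals alone), with CALR at 0.46, whose counts are close to those of an overlapping identifier, and SEL1L at -0.40. Of 32 ATF4 target genes 5 rose, led by CHAC1 (1.95), and 6 fell, led by STC2 (-2.23) and TRIB3 (-1.21). The autophagy and lysosome list had 10 of 74 higher (4 with library totals alone, 5 without DMSO replicate 1 and 6 without DMSO replicate 2), with the cargo receptor gene SQSTM1 at 0.89 and the kinase gene ULK1 at 0.81, and 5 lower (2 without 18DS replicate 2 or DMSO replicate 1, 3 without 18DS replicate 3).

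RNA-binding and decay factors fell more often than they rose, beside 11% lower and 9.95% higher of all genes. The shares lower and higher were 29.1% and 7.27% for mRNA decay genes and 23.6% and 10.9% for splicing genes. For the host and noncoding RNAs they were 17.2% and 27.6%, and for histone modifiers 15% and 7.5%. In the list of mRNA decay and antiproliferative BTG and TOB genes 16 of 55 fell, with BTG3 at -0.79 and the nonsense-mediated decay factor UPF2 at -0.72, and 4 rose, with TOB1 at 1.15. Of 55 splicing factor and kinase genes 13 fell, with RBM39 at -0.59, SRSF7 at -0.50 and HNRNPDL at -0.49, and 6 rose, with CLK1 at 0.76. Among 29 snoRNA host and nuclear noncoding RNAs 8 rose, with NEAT1 at 513, 509 and 647 CPM in 18DS and 268, 192 and 212 CPM in DMSO (1.31, adjusted p = 2.43e-06), and 5 fell (2 without 18DS replicate 3, and 3 without 18DS replicate 1, DMSO replicate 1 or DMSO replicate 3), with SNHG15 at -0.75. Of 80 histone modifier genes 12 fell (6 without DMSO replicate 1), with KMT5B at -0.96 and SETDB1 at -0.80, and 6 rose, with NSD2 at 0.42.

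The metabolic lists and the families after them are to be read beside the 9.95% higher and 11% lower of all genes. Glycolysis and hypoxia genes had 6 of 34 higher (17.6%; PGD, 0.64; GAPDH, 0.49, whose counts are nearly those of an overlapping identifier) and 3 lower (8.82%; PFKFB3, -0.66). Nucleotide, polyamine and folate genes had 7 of 42 higher (16.7%; SAT1, 1.39) and 6 lower (14.3%, or 11 genes with library totals alone; UMPS, -0.48), sterol and fatty acid genes 5 of 34 higher (14.7%, or 3 genes without 18DS replicate 2; TM7SF2, 1.39) and 5 lower (14.7%, or 9 genes with library totals alone), and solute carriers 12 of 174 higher (6.90%; SLC35A2, 0.85) and 12 lower (6.90%; SLC25A24, -0.93; 20 with library totals alone and 7 without DMSO replicate 1). The cullin and neddylation list, which holds DCUN1D3, had 5 of 44 higher (11.4%, or 3 genes without 18DS replicate 2). It had 8 lower (18.2%, or 5 genes without 18DS replicate 3 or DMSO replicate 1), with CAND2 at -0.89 and DCUN1D5 at -0.55. In the KLHL adaptor list 2 of 20 rose (10%) and 5 fell (25%, or 3 genes without 18DS replicate 2 or DMSO replicate 3), with KLHL42 at -1.03. The shares higher in these lists were close to that of all genes. In the METTL and ALKBH list 2 of 31 rose (6.45%) and 6 fell (19.4%, or 3 genes without 18DS replicate 2). Of 4 SERTAD genes SERTAD1 and SERTAD2 rose and CDCA4 fell by 0.57, and SERTAD3, at a mean of 1.33 CPM, did not pass (-1.14, adjusted p = 0.112). Of 15 tubulin genes 3 rose (20%), with TUBB4B at 0.69, and 2 fell (13.3%), with TUBB at -0.23.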
